A study of Danio rerio with 13 samples.

Results

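Solute carrier genes encode the membrane proteins that move nutrients, ions and metabolites in and out of cells and their organelles without splitting ATP. They were compared here between zebrafish acute lymphoblastic leukemias (ALL) by the substrate each protein carries. The members are the genes whose only symbol in the array annotation starts with slc and a digit, which gave 136 genes out of 8793 named genes, measured by 157 probe sets out of 15502. Each gene is shown by its probe set with the highest mean over the 13 arrays, and 18 of the 136 genes had more than 1 probe set, with at most 3. Of the 136 symbols, 2 (*slc7a6os* and *slc4a1ap*) name proteins that are not transporters, and 1 (*slc49a4*) was left without a substrate.

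The arrays held GFP+ leukemia cells, sorted from the body of an adult fish for each array. There were 6 arrays of *hMYC-2* ALL and 4 of *hMYC-1* ALL, both from the double-transgenic rag2:hMYC;lck:eGFP line, in which human *MYC* follows a zebrafish *rag2* promoter that is active in immature lymphocytes, and 3 arrays of *hlk* T-ALL, from another leukemia line that carries the same lck:eGFP reporter. The study formed the *hMYC-1* and *hMYC-2* groups by clustering these same arrays, so values are given for *hMYC-2* beside *hMYC-1* with no test. A sort from a body, which the study took without the head, can hold more than 1 leukemia in 1 tube. In such bulk samples fewer cells of a type and less RNA per cell cannot be told apart.

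Solute carriers fall into families by sequence. The SLC25 family sits mostly in the inner mitochondrial membrane and links the mitochondrial matrix with the cytosol, exchanging citrate, phosphate, nucleotides, amino acids and cofactors. At the plasma membrane, the large neutral amino acid exchangers need a heavy chain, the *SLC3A2* product 4F2hc (CD98), to reach the surface, while SLC43 members carry large neutral amino acids by facilitated diffusion and SLC38 members couple neutral amino acids to sodium. Dividing lymphocytes take up large neutral amino acids, glutamine, glucose, phosphate and iron through such carriers.

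All values are log2 readings per probe set. The array medians ran from 4.98 to 5.10, and arrays within a group correlated over all probe sets at 0.983 to 0.992 in *hMYC-2*, 0.977 to 0.989 in *hMYC-1* and 0.955 to 0.975 in *hlk* ALL. The first *hlk* array stood apart in 1 measure of RNA quality, since its *gapdh* 3' control read 4.69 above the 5' control, against 1.09 to 2.49 on the other 12 arrays. The EGFP control probe read 6.39 to 6.88 on all 13. The highest of the tag control probe sets, which match no zebrafish transcript, reached 5.68, and a reading at or below that value is called within background. All 10 measured B lineage genes were higher in all *hMYC* than in *hlk* ALL, with list means of 9.69 to 9.98 per array in *hMYC-2*, 8.89 to 10.07 in *hMYC-1* and 5.42 to 5.51 in *hlk* ALL. Of the 7 T lineage genes, 4 were lower and 1 was higher, with list means of 4.88 to 5.42 in *hMYC-2*, 4.99 to 6.52 in *hMYC-1* and 6.95 to 7.50 in *hlk* ALL. The lineage of the sorted cells therefore differs along with every comparison with *hlk* below, and its part in them was not tested. Among the defining genes of red cells 12 of 14 were within background on every array, as were 12 of 14 hepatocyte genes, 5 of 7 kidney tubule genes and 6 of 6 thrombocyte genes. The red cell gene *hbaa1* was above background on 10 arrays. Within background on every array were also 3 of 7 neutrophil, 3 of 5 macrophage and 9 of 15 exocrine pancreas and intestine genes. The same held for 10 of 15 muscle, 6 of 11 skin, 5 of 5 endothelium and 8 of 10 neuron genes. Some other genes of these lists were above background and differed between all *hMYC* and *hlk* ALL. The neutrophil list gene *ncf1* averaged 11.41 in *hMYC-2*, 11.19 in *hMYC-1* and 3.46 in *hlk* ALL (limma, adjusted p = 1.58e-11). The muscle list gene *eno3* was higher too (0.75 ± 0.13). Another gene of that list, *mylz3*, was lower (−0.67 ± 0.13), with 4 arrays above background. The kidney tubule list gene *trpm7* was lower (−1.93 ± 0.18). So was the neutrophil list gene *mmp9* (−0.59 ± 0.18), which was within background on all arrays. The part of such cells in the comparisons was not tested.

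Few solute carriers were read above background in these cells. Of the 136 genes, 31 were above background on all 13 arrays, 59 on at least 1 array, and 77 on none (56.6%, against 39.9% of all named genes). Between 43 and 50 members were above background on each array. The SLC25 carriers (17 of 25 above background on at least 1 array) and the metal carriers (11 of 15) were read most often. Of the carriers of inorganic ions and protons 6 of 24 were, of the amino acid carriers 9 of 21, and of the carriers of sugars, polyols and monocarboxylates 5 of 19. None of the 5 neurotransmitter and osmolyte carriers was above background, among them *slc6a3*, the dopamine transporter, and *slc18a3a*, the vesicular acetylcholine transporter.

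In all *hMYC* ALL against *hlk* T-ALL, 21 of the 136 genes were higher (15.4%) and 11 were lower (8.09%), at an adjusted p under 0.05 (limma, Benjamini-Hochberg over all probe sets). Over all 15502 probe sets 11.6% were higher and 13.9% were lower. The members' share of calls in either direction (23.5%) thus lay near that of all probe sets (25.5%), and their median difference was −0.03, against −0.05 over all probe sets. Of the genes called, 5 of the 21 higher and 2 of the 11 lower were within background on all 13 arrays, so that for them only the readings are given and no fold. The fitted difference was at least 2-fold for 10 of the higher genes and for 1 of the lower ones (over all probe sets, 4.9% and 3.46%). Of these 10, 2 were within background on all arrays (*slc25a10b* and *slc25a32a*), and 2 had every *hlk* array within background and bounds under 2-fold (*slc25a1a* and *slc2a3a*). Of the other 6, 3 were above background on all arrays (*slc25a33*, *slc35h1* and *slc9a7*). Of these, *slc25a33* was higher in *hMYC-2* ALL but not in *hMYC-1* ALL, as given below. Where only some arrays of a group were above background, their number is given in place of a fold. The arrays of the 10 *hMYC* and 3 *hlk* leukemias did not overlap for 13 members above and 5 below, 9.56% and 3.68% of the members, against 7.68% and 7.97% of all probe sets.

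Set apart by group, *hMYC-2* ALL had 22 members higher and 9 lower than *hlk* T-ALL (11.0% and 13.7% of all probe sets), and *hMYC-1* ALL had 14 higher and 13 lower (9.13% and 9.63%). The fitted difference was at least 2-fold in *hMYC-2* for 12 of the higher and 1 of the lower members, those near or within background included (over all probe sets, 5.14% and 3.55%), and in *hMYC-1* for 8 and 4 (4.33% and 3.5%). The 2 comparisons share the *hlk* arrays. All 14 members higher in *hMYC-1* were also higher in *hMYC-2*, 7 were lower in both, and none was called in opposite directions. In all, 37 members passed in at least 1 comparison. When the replicate number, which the deviations of the *hMYC-2* and *hlk* arrays share, was fitted as a block, *hMYC-2* ALL had 18 members higher and 6 lower, of which 15 and 5 were called without the block. In all *hMYC* ALL the block ended 6 calls, those of *slc25a3b* (adjusted p = 0.0816), *slc25a12* (0.103), *slc12a9* (0.0712), *slc37a4a* (0.0723), *slc10a2* (0.102) and *slc15a4* (0.114). The fifth and sixth *hMYC-2* arrays have no array of the same number in the other groups, so with the block they carry no weight in any comparison. The block thus also rested on fewer arrays, and what ended a call was not tested. Calls below *hlk* were fewer under another scaling. When each array was shifted to an equal mean of 3 housekeeping genes, which moved the median difference of all probe sets from −0.05 to 0.12, 3 members (*slc37a2*, *slc9a8* and *slc25a38b*) were lower in all *hMYC* ALL in place of 11, while 23 were higher in place of 21. A shift of whole arrays moves all genes alike. It was 0.43 for the first *hlk* array, against −0.28 to 0.14 for the other 12, and *gapdh*, 1 of the 3 genes, was above background on 2 of the 13 arrays.

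**Figure D1:**
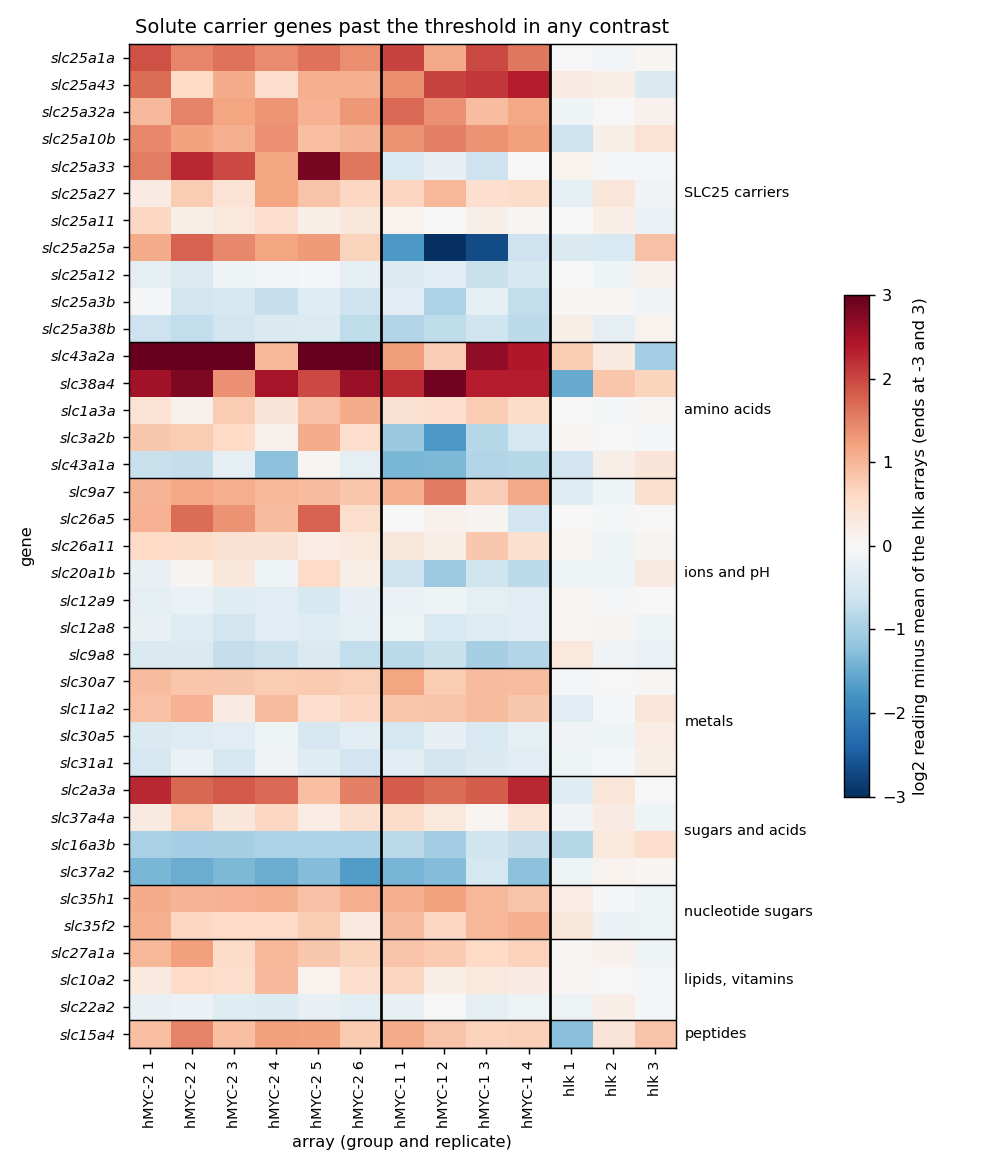
Log2 reading of each array (columns, by group and replicate) minus the mean of the 3 *hlk* arrays, for the 37 solute carrier genes past an adjusted p of 0.05 in at least 1 comparison (rows, by substrate). Red is higher and blue lower than the *hlk* mean, with colors ending at −3 and 3. *slc25a1a*, *slc35h1* and *slc30a7* are red across all 10 *hMYC* arrays, while *slc25a33* and *slc3a2b* are above the *hlk* mean in the 6 *hMYC-2* arrays and below it in the 4 *hMYC-1* arrays.

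**Figure D2:**
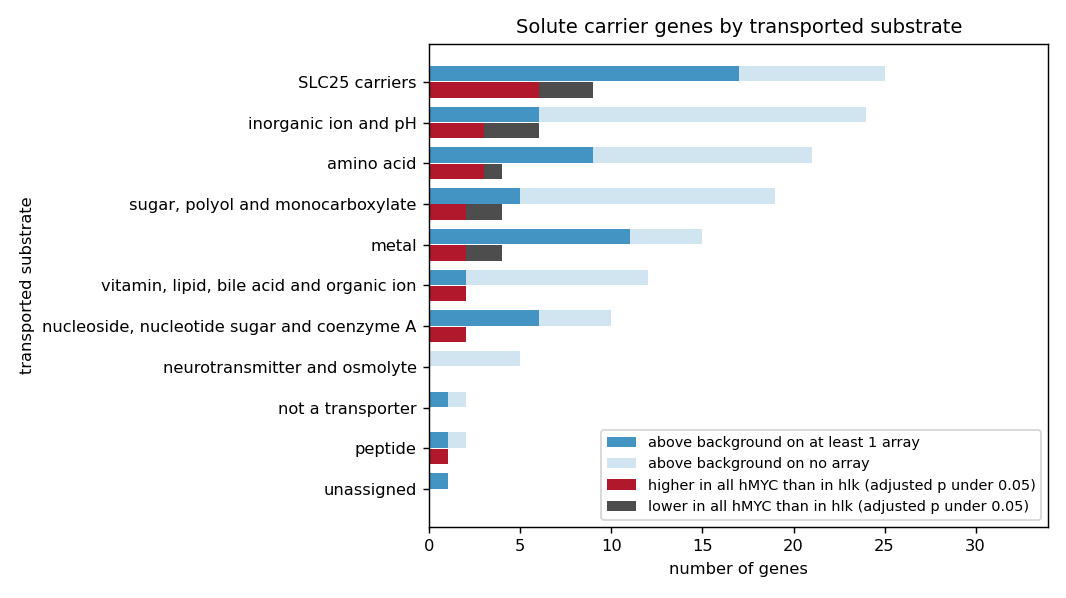
Number of solute carrier genes (horizontal axis) by transported substrate (vertical axis). The upper bar of each pair splits the genes into those above background on at least 1 array and those on none, and the lower bar counts those higher and lower in all *hMYC* than in *hlk* ALL at an adjusted p under 0.05. The SLC25 carriers hold 6 of the 21 higher and 3 of the 11 lower genes.

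Among the 25 SLC25 carriers, 6 were higher and 3 lower in all *hMYC* ALL, and 16 did not pass, with a median difference of 0.10. *slc25a1a* encodes the citrate carrier, which exports citrate to the cytosol for lipid synthesis. It read 5.68 to 6.20 in *hMYC-2* ALL (median 5.83), 6.31, 5.41, 6.25 and 5.86 in *hMYC-1* ALL, and 4.29, 4.20 and 4.35 in *hlk* T-ALL. Every *hlk* array was within background and every *hMYC* array was higher than all of them. The difference was 1.62 ± 0.17 (limma, S.E., adjusted p = 1.35e-05), which against the background limit is at least 0.22.

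*slc25a43*, a carrier whose substrate is not settled, read 6.25 to 7.39 in *hMYC-2* ALL (median 6.80), 7.12, 7.74, 7.85 and 8.08 in *hMYC-1* ALL, and 5.97, 5.91 and 5.29 in *hlk* T-ALL. The 3 groups stood in the order *hMYC-1*, *hMYC-2*, *hlk*, with 1 *hMYC-2* array within the range of *hMYC-1* and none within that of *hlk*. The difference was 1.39 ± 0.24 for all *hMYC* (adjusted p = 0.00103), 1.97 ± 0.28 for *hMYC-1* (adjusted p = 0.000314) and 1.01 ± 0.26 for *hMYC-2* (adjusted p = 0.0135). Of the 3 *hlk* arrays 2 were above background. With the replicate block the *hMYC-2* call was lost (adjusted p = 0.127).

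*slc25a32a*, related to the mitochondrial folate and FAD carrier, and *slc25a10b*, related to the dicarboxylate carrier, were also called higher, but lay within background on all arrays. *slc25a32a* read 4.83 to 5.34 in *hMYC-2* ALL (median 5.09), 5.56, 5.23, 4.78 and 5.01 in *hMYC-1* ALL, and 3.73, 3.83 and 3.98 in *hlk* T-ALL. For *slc25a10b* the readings were 4.21 to 4.73 in *hMYC-2* ALL (median 4.44), 4.64, 4.81, 4.64 and 4.53 in *hMYC-1* ALL, and 2.68, 3.48 and 3.74 in *hlk* T-ALL. In both genes every *hMYC* array read higher than every *hlk* array (adjusted p = 4.21e-05 for *slc25a32a* and 0.000237 for *slc25a10b*), at a level where no fold can be given. *slc25a27*, an uncoupling protein homolog, passed as well (0.68 ± 0.19, adjusted p = 0.0168), with 1 of the 13 arrays above background, and did not pass without the first *hlk* array (0.55, adjusted p = 0.0876) or the third (0.63, adjusted p = 0.0662).

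The 3 SLC25 members that were lower are the heme-linked glycine carrier gene *slc25a38b*, the phosphate carrier gene *slc25a3b* and *slc25a12*, which encodes an aspartate and glutamate exchanger. *slc25a38b* read 5.83 to 6.19 in *hMYC-2* ALL (median 6.0), 5.70, 5.82, 5.99 and 5.80 in *hMYC-1* ALL, and 6.76, 6.30 and 6.70 in *hlk* T-ALL. The *hlk* arrays lay above all *hMYC* arrays, with a difference of −0.65 ± 0.11 (adjusted p = 0.000836). *slc25a3b* had some of the highest readings of any member, 11.26 to 11.91 in *hMYC-2* ALL (median 11.43), 11.60, 11.00, 11.65 and 11.20 in *hMYC-1* ALL, and 12.01, 11.99 and 11.85 in *hlk* T-ALL, and its difference of −0.51 ± 0.15 (adjusted p = 0.0257) was lost without the first *hlk* array (−0.48, adjusted p = 0.0814) and without the second (−0.49, adjusted p = 0.0788). *slc25a12* was lower by a smaller margin (−0.31 ± 0.09, adjusted p = 0.0311), with overlapping arrays. It did not pass without the first *hlk* array (−0.31, adjusted p = 0.0724), without the third (−0.24, adjusted p = 0.136) or without the fourth *hMYC-1* array (−0.29, adjusted p = 0.0586). *slc25a37*, the mitoferrin of red cells, was within background everywhere, at 3.22 ± 0.09 in *hMYC-2*, 3.22 ± 0.10 in *hMYC-1* and 3.13 ± 0.24 in *hlk* ALL (S.D., n = 6, 4 and 3). So was *slc4a1a*, the red cell anion exchanger, at 2.96 ± 0.09, 2.99 ± 0.31 and 2.84 ± 0.19 in the same groups.

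Of the 21 amino acid carriers, 3 were higher, 1 was lower and 17 did not pass, with a median difference of −0.03. *slc43a2a* is related to LAT4, which moves branched-chain and other large neutral amino acids by facilitated diffusion. It read 7.27 to 10.13 in *hMYC-2* ALL (median 9.69), 7.52, 7.01, 8.92 and 8.67 in *hMYC-1* ALL, and 7.02, 6.55 and 5.25 in *hlk* T-ALL. It was higher in all *hMYC* ALL by 2.55 ± 0.59 (adjusted p = 0.00639), and in *hMYC-2* ALL by 3.08 ± 0.63 (adjusted p = 0.00322), with 2 of the 3 *hlk* arrays above background. The *hMYC-2* and *hlk* arrays did not overlap, although the fourth *hMYC-2* array (7.27) lay near the highest *hlk* array (7.02). *hMYC-1* ALL showed a difference of 1.76 ± 0.68 that did not pass (adjusted p = 0.0981), with 1 of its 4 arrays below the highest *hlk* array.

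*slc38a4* is related to SNAT4, a sodium-coupled carrier of neutral amino acids. Its readings were 6.64 to 8.08 in *hMYC-2* ALL (median 7.78), 7.51, 8.18, 7.64 and 7.64 in *hMYC-1* ALL, and 3.78, 6.12 and 5.94 in *hlk* T-ALL. All 10 *hMYC* arrays lay above the 3 *hlk* arrays, and the *hMYC* groups overlapped each other. The difference was 2.36 ± 0.42 (adjusted p = 0.00122), with 2 of the 3 *hlk* arrays above background. Its size rested in part on the first *hlk* array, the one with the high *gapdh* 3' to 5' difference, and was 1.61 without it (adjusted p = 0.00197).

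*slc1a3a*, a glutamate transporter gene, was called higher within background (4.65 to 5.64 in *hMYC-2* ALL (median 5.13), 4.98, 5.03, 5.29 and 5.09 in *hMYC-1* ALL, and 4.55, 4.47 and 4.56 in *hlk* T-ALL, adjusted p = 0.0187) and was not called without the second *hlk* array (adjusted p = 0.0647). The amino acid carrier that was lower was *slc43a1a*, related to LAT3, another carrier of large neutral amino acids. It read 7.52 to 8.81 in *hMYC-2* ALL (median 8.28), 7.40, 7.42, 7.87 and 7.91 in *hMYC-1* ALL, and 8.19, 8.93 and 9.15 in *hlk* T-ALL. All 4 *hMYC-1* arrays lay below the *hlk* arrays (−1.11 ± 0.29, adjusted p = 0.018), but the *hMYC-2* arrays overlapped them (−0.52 ± 0.27, adjusted p = 0.185). For all *hMYC* ALL the difference of −0.75 ± 0.25 was close to the threshold (adjusted p = 0.0437), and leaving out single arrays gave −0.56 to −1.04, with the call lost without any of the 4 *hMYC-1* arrays, the first or second *hMYC-2* array, or the second or the third *hlk* array. With equal housekeeping genes it was lost as well. The 2 SLC43 members named here thus had opposite signs in all *hMYC* ALL, but in no single *hMYC* group did both pass.

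Other amino acid carriers above background on all 13 arrays did not pass. *slc38a2*, related to SNAT2, which cells induce when amino acids are short, averaged 8.34 ± 0.62 in *hMYC-2*, 7.58 ± 0.26 in *hMYC-1* and 7.97 ± 0.65 in *hlk* ALL (S.D., n = 6, 4 and 3). *slc7a3a*, a cationic amino acid transporter gene, averaged 6.97 ± 0.92, 6.84 ± 0.64 and 7.74 ± 0.98 in the same groups. Of 21 transporter genes chosen by name for display, which include red cell and iron transport genes, 10 are among the members. The others, which include *slc7a5*, *slc1a5*, *slc7a11*, *slc2a1a*, *slc19a1* and *slc29a1a*, were not among the members and so were not analysed here.

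Of the 19 carriers of sugars, polyols and monocarboxylates, 2 were higher and 2 lower. *slc2a3a* is related to GLUT3, a glucose transporter of high affinity. It read 4.99 to 6.34 in *hMYC-2* ALL (median 5.80), 5.90, 5.76, 5.91 and 6.34 in *hMYC-1* ALL, and 3.73, 4.46 and 4.07 in *hlk* T-ALL. The *hlk* arrays were all within background and below all *hMYC* arrays, which themselves lay close to the background limit. The difference was 1.75 ± 0.23 (adjusted p = 0.000107), at least 0.16 when *hlk* is set to that limit. *slc37a4a*, related to the glucose-6-phosphate transporter of the endoplasmic reticulum, showed 0.40 ± 0.13 (adjusted p = 0.0382), with overlapping arrays, and the call was lost without the first or the third *hlk* array, the fourth *hMYC-1* array or *hMYC-2* array 2, 4 or 6 (adjusted p = 0.0529 to 0.144).

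*slc37a2*, a sugar phosphate exchanger of the endoplasmic reticulum known from macrophages in mammals, was the 1 member with a fitted difference of at least 2-fold below *hlk* in all *hMYC* ALL. It read 5.14 to 5.52 in *hMYC-2* ALL (median 5.39), 5.41, 5.50, 6.28 and 5.57 in *hMYC-1* ALL, and 6.65, 6.91 and 6.87 in *hlk* T-ALL. The 3 *hlk* arrays lay above all 10 *hMYC* arrays, of which 1, in *hMYC-1*, was above background. The difference was −1.31 ± 0.15 (adjusted p = 4.37e-05), and in *hMYC-2* ALL, where every array was within background, it was at least 1.13 (measured −1.44 ± 0.17, adjusted p = 4.01e-05). Beside it, the macrophage marker list had means of 5.78 to 6.07 in *hMYC-2*, 5.89 to 6.13 in *hMYC-1* and 5.89 to 6.33 in *hlk* ALL, and 2 of its 5 genes were lower in all *hMYC* ALL. These were *cd68* (−0.56, adjusted p = 0.00151) and *csf1ra*, which was within background on all arrays. The other gene above background, *ctss2.2*, read 0.39 higher and did not pass (adjusted p = 0.095). The part of macrophages in the *slc37a2* difference was not tested. *slc16a3b*, related to the lactate exporter MCT4, was called lower within background, reading 2.98 to 3.09 in *hMYC-2* ALL (median 3.05), 3.22, 2.96, 3.42 and 3.30 in *hMYC-1* ALL, and 3.16, 4.33 and 4.54 in *hlk* T-ALL (adjusted p = 0.00771). The first *hlk* array read like the *hMYC* arrays, and the call was lost without the third *hlk* array (adjusted p = 0.0544).

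**Figure D3:**
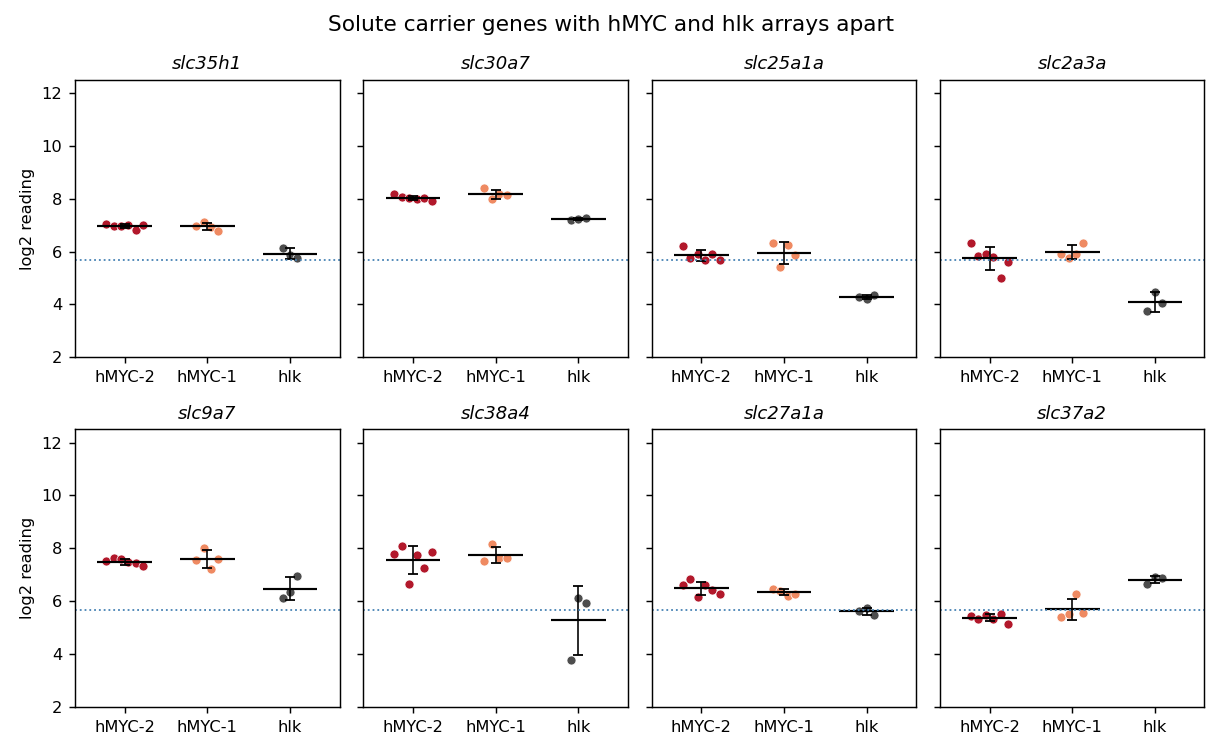
Log2 readings (vertical axis) of 8 solute carrier genes by group (horizontal axis), with 1 point per array, the group mean as a line and the S.D. as bars. The dotted line is the background limit of 5.68. In each panel the *hMYC-2* and *hMYC-1* arrays lie on 1 side of the 3 *hlk* arrays, above them in 7 genes and below them in *slc37a2*.

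Of the 24 carriers of inorganic ions and protons, 3 were higher and 3 lower, with a median difference of −0.10. Among them were 2 sodium/proton exchangers of the Golgi and nearby compartments, which set organelle pH. *slc9a7*, related to NHE7, read 7.32 to 7.65 in *hMYC-2* ALL (median 7.50), 7.55, 8.03, 7.22 and 7.61 in *hMYC-1* ALL, and 6.11, 6.36 and 6.96 in *hlk* T-ALL. All *hMYC* arrays lay above the *hlk* arrays, by 1.06 ± 0.17 (adjusted p = 0.000578), 2.09-fold. Without the first *hlk* array the difference was 0.88 (adjusted p = 0.00397). *slc9a8*, related to NHE8, read 4.94 to 5.24 in *hMYC-2* ALL (median 5.13), 4.89, 5.01, 4.67 and 4.80 in *hMYC-1* ALL, and 5.99, 5.56 and 5.46 in *hlk* T-ALL. Here all *hMYC* arrays were within background and below the *hlk* arrays, of which 1 was above background, and the difference was −0.67 ± 0.12 (adjusted p = 0.00101), with no fold to be set against the background limit. That 1 array was the first *hlk* array, the one with the high *gapdh* 3' to 5' difference. Without it every reading was within background, and the difference was −0.51 (adjusted p = 0.00517).

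*slc26a5* is the zebrafish gene for prestin, known as the motor protein of cochlear hair cells in mammals. Its difference in all *hMYC* ALL (0.69 ± 0.23, adjusted p = 0.0433) was lost without any 1 of the first 5 *hMYC-2* arrays or of the 3 *hlk* arrays (adjusted p = 0.0634 to 0.112), and it is described with the *hMYC-2* genes below. *slc26a11*, an anion exchanger gene, was called higher within background, reading 4.90 to 5.27 in *hMYC-2* ALL (median 5.14), 5.03, 4.87, 5.48 and 5.15 in *hMYC-1* ALL, and 4.73, 4.55 and 4.76 in *hlk* T-ALL (adjusted p = 0.0149). *slc12a8*, of the cation-chloride cotransporter family, was called lower within background, reading 3.95 to 4.28 in *hMYC-2* ALL (median 4.17), 4.38, 4.06, 4.12 and 4.16 in *hMYC-1* ALL, and 4.56, 4.59 and 4.38 in *hlk* T-ALL (adjusted p = 0.0113). Neither was called without the second *hlk* array (adjusted p = 0.0742 for *slc26a11* and 0.0551 for *slc12a8*). *slc12a9*, of the same family, read 5.15 to 5.42 in *hMYC-2*, 5.28 to 5.50 in *hMYC-1* and 5.57 to 5.69 in *hlk* ALL (adjusted p = 0.0111), with 1 of the 13 arrays above background. The call was lost with the replicate block (adjusted p = 0.0712 for all *hMYC* and 0.0773 for *hMYC-2*), and its second probe set showed no such difference (−0.02, adjusted p = 0.946).

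Among the 15 metal carriers, 2 were higher and 2 lower, with differences of up to 0.86, and 10 were above background on every array. *slc30a7*, related to ZnT7, which fills the Golgi with zinc, read 7.93 to 8.16 in *hMYC-2* ALL (median 8.02), 8.40, 7.98, 8.16 and 8.14 in *hMYC-1* ALL, and 7.19, 7.22 and 7.25 in *hlk* T-ALL. The spread within groups was small and no array crossed between *hMYC* and *hlk*. Its difference of 0.86 ± 0.08 (adjusted p = 6.65e-06) is 1.82-fold. *slc30a5*, related to ZnT5, which also loads zinc into the early secretory pathway, was lower, reading 6.52 to 6.87 in *hMYC-2* ALL (median 6.68), 6.51, 6.79, 6.58 and 6.73 in *hMYC-1* ALL, and 6.92, 6.91 and 7.26 in *hlk* T-ALL (−0.36 ± 0.10, adjusted p = 0.0147). The call was lost without the third *hlk* array (−0.25, adjusted p = 0.0915), and with array weights, equal housekeeping genes and the shrinkage t. So *slc30a7* and *slc30a5* had opposite signs, as did *slc9a7* and *slc9a8*, with the limits given for the falls of *slc30a5* and *slc9a8*. These pairs were named after their calls, and the zinc exporter gene *slc30a6* did not pass.

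*slc11a2*, related to DMT1, which brings iron out of endosomes into the cytosol, read 8.12 to 8.92 in *hMYC-2* ALL (median 8.63), 8.70, 8.73, 8.82 and 8.68 in *hMYC-1* ALL, and 7.55, 7.82 and 8.23 in *hlk* T-ALL. All but 1 of the *hMYC* arrays lay above the *hlk* arrays. The difference was 0.78 ± 0.16 (adjusted p = 0.00382), 1.71-fold. In *hMYC-2* alone (0.72 ± 0.18, adjusted p = 0.0101) it was lost with the replicate block (adjusted p = 0.0722) and without the first *hlk* array (0.56, adjusted p = 0.0529). The *hMYC-1* call (0.87, adjusted p = 0.00638) was lost with the replicate block too (adjusted p = 0.0574). *slc40a1*, the iron exporter ferroportin, was within background on all arrays. Among 10 other genes of iron handling, 1 was higher and 2 were lower (over all probe sets, 11.6% and 13.9%). The higher one was the iron-sulfur cluster scaffold gene *iscub* (2.67 ± 0.36, adjusted p = 0.000123). It was above background on 12 of the 13 arrays, with an *hlk* mean of 5.66. The lower ones were *ncoa4* (−0.81 ± 0.13, adjusted p = 0.000429), whose protein delivers ferritin to autophagy, and the iron sensor gene *fbxl5* (−0.76 ± 0.14, adjusted p = 0.0014). *slc31a1*, the high-affinity copper importer, was lower by 0.39 (adjusted p = 0.0153), while its second probe set read 0.09 higher (adjusted p = 0.815). The call was also lost without the third *hlk* array (−0.31, adjusted p = 0.085). The zinc importers *slc39a6*, *slc39a7* and *slc39a9* and the exporters *slc30a6* and *slc30a9* were above background on every array and did not pass.

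Of the 10 genes classed by family as carriers of nucleosides, nucleotide sugars and coenzyme A, 2 were higher and 8 did not pass. Both higher genes are SLC35 members, and what either carries is not settled here. At an adjusted p of 3.96e-06, *slc35h1* had the smallest of any member. It read 6.81 to 7.04 in *hMYC-2* ALL (median 6.98), 6.98, 7.12, 6.91 and 6.78 in *hMYC-1* ALL, and 6.15, 5.86 and 5.76 in *hlk* T-ALL. The range over the 10 *hMYC* arrays was narrower than the gap to *hlk*, and the difference was 1.03 ± 0.09, 2.04-fold. *slc35f2* read 6.68 to 7.44 in *hMYC-2* ALL (median 6.99), 7.33, 6.99, 7.37 and 7.44 in *hMYC-1* ALL, and 6.71, 6.21 and 6.23 in *hlk* T-ALL and differed by 0.75 ± 0.15 (adjusted p = 0.00287), with 1 *hMYC-2* array below the highest *hlk* array. *slc29a2*, an equilibrative nucleoside transporter gene, averaged 6.29 ± 0.89 in *hMYC-2*, 6.77 ± 0.54 in *hMYC-1* and 7.25 ± 0.99 in *hlk* ALL (S.D.) and did not pass (adjusted p = 0.286).

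Of the 12 carriers of vitamins, lipids, bile acids and organic ions, 2 were above background on any array and 2 were higher. *slc27a1a*, related to a fatty acid transport protein that also activates fatty acids, read 6.15 to 6.83 in *hMYC-2* ALL (median 6.52), 6.46, 6.39, 6.21 and 6.29 in *hMYC-1* ALL, and 5.64, 5.73 and 5.47 in *hlk* T-ALL. The groups did not overlap, with a difference of 0.81 ± 0.13 (adjusted p = 0.000404) and 1 of the 3 *hlk* arrays above background. *slc10a2*, known as the ileal bile acid transporter, was called higher within background (adjusted p = 0.0439) and lost the call without any 1 of the 3 *hlk* arrays, without the third *hMYC-1* array and without *hMYC-2* array 2, 3 or 6 (adjusted p = 0.0515 to 0.111). The peptide and histidine carrier gene *slc15a4*, whose protein sits in endolysosomes of immune cells, read 6.88 to 7.59 in *hMYC-2* ALL (median 7.15), 7.21, 6.96, 6.80 and 6.81 in *hMYC-1* ALL, and 4.85, 6.49 and 6.95 in *hlk* T-ALL. Its difference of 0.99 ± 0.32 (adjusted p = 0.0394) rested on the first *hlk* array, and was 0.37 without it (adjusted p = 0.183). The call was also lost without the first or second *hMYC-1* array or any 1 of *hMYC-2* arrays 2 to 5 (adjusted p = 0.051 to 0.0623).

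The *hMYC-2* and *hMYC-1* groups differed in few solute carriers. Of the 136 genes, 6 had no overlap between the 6 *hMYC-2* and 4 *hMYC-1* arrays (4.41%, against 3.68% of all probe sets). All 6 were higher in *hMYC-2*, whereas over all probe sets 1.38% were higher and 2.3% lower. The group means differed at least 2-fold in 6 members (4.41%, against 1.45% of all probe sets). Among these 6 is *slc25a14* (3.19), whose readings fell into levels that crossed the groups, as given below. These shares describe groups that the study formed from the same arrays.

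The largest difference was in *slc25a25a*, related to a calcium-regulated mitochondrial carrier that exchanges ATP-magnesium for phosphate. It read 8.02 to 9.14 in *hMYC-2* ALL (median 8.60), 5.64, 4.27, 4.68 and 6.75 in *hMYC-1* ALL, and 6.93, 6.91 and 8.23 in *hlk* T-ALL. The *hMYC-2* mean was 3.27 above that of *hMYC-1*, and the *hlk* arrays lay between, with 1 of them inside the *hMYC-2* range. Of the 4 *hMYC-1* arrays 1 was above background, so the sizes of the *hMYC-1* differences rest in part on readings within background. Against *hlk*, *hMYC-1* was lower by 2.02 (S.E. 0.51, adjusted p = 0.0144), and without the third *hlk* array this did not pass (−1.58, adjusted p = 0.0684), while the *hMYC-2* difference of 1.25 ± 0.47 did not pass (adjusted p = 0.0741).

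*slc25a33* is related to a mitochondrial pyrimidine nucleotide carrier that is induced by insulin-like growth factor in human cells. It read 9.79 to 11.45 in *hMYC-2* ALL (median 10.39), 8.15, 8.36, 7.98 and 8.60 in *hMYC-1* ALL, and 8.71, 8.55 and 8.56 in *hlk* T-ALL. All *hMYC-2* arrays lay above all others, and *hMYC-1* and *hlk* overlapped. The difference was 1.90 ± 0.29 for *hMYC-2* against *hlk* (adjusted p = 0.000381), 3.72-fold, and −0.33 ± 0.31 for *hMYC-1* against *hlk* (adjusted p = 0.524). For all *hMYC* against *hlk* it was 1.0 ± 0.27 (adjusted p = 0.0152). That call was lost without the second *hlk* array (adjusted p = 0.0523), without the third (adjusted p = 0.0524) and with array weights. *hMYC-2* stood 2.23 above *hMYC-1*. *slc26a5* had the same order, reading 6.80 to 8.04 in *hMYC-2* ALL (median 7.48), 6.27, 6.40, 6.37 and 5.70 in *hMYC-1* ALL, and 6.30, 6.24 and 6.30 in *hlk* T-ALL, with 1.21 ± 0.25 in *hMYC-2* against *hlk* (adjusted p = 0.00306) and −0.10 ± 0.27 in *hMYC-1* against *hlk* (adjusted p = 0.856).

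*slc3a2b* encodes a form of 4F2hc, the heavy chain of the amino acid exchangers. It read 10.09 to 11.07 in *hMYC-2* ALL (median 10.64), 8.84, 8.24, 9.11 and 9.43 in *hMYC-1* ALL, and 10.02, 9.94 and 9.93 in *hlk* T-ALL. No 2 of the 3 groups overlapped, with *hMYC-2* highest, *hlk* between and *hMYC-1* lowest. *hMYC-1* was lower than *hlk* by 1.06 (S.E. 0.25, adjusted p = 0.0109), while the *hMYC-2* difference of 0.65 ± 0.24 did not pass (adjusted p = 0.0617). The *hMYC-1* call was lost with the replicate block (adjusted p = 0.0542), with array weights and with the shrinkage t. The difference between the *hMYC* means was 1.71. The other copy, *slc3a2a*, was within background on all arrays, at 3.21 to 3.75 in *hMYC* and 3.36 to 3.43 in *hlk* ALL. *slc20a1b*, related to the phosphate importer PiT1, read 8.92 to 9.71 in *hMYC-2* ALL (median 9.27), 8.51, 8.05, 8.55 and 8.36 in *hMYC-1* ALL, and 9.01, 9.0 and 9.42 in *hlk* T-ALL. *hMYC-1* was lower than *hlk* (−0.78 ± 0.19, adjusted p = 0.0118) but not without the third *hlk* array (−0.64, adjusted p = 0.0567), and *hMYC-2* overlapped *hlk* (0.13 ± 0.18, adjusted p = 0.633). The sixth gene with no overlap, *slc5a8l*, was within background on all arrays (2.52 to 2.77 in *hMYC-2* ALL (median 2.61), 2.51, 2.34, 2.34 and 2.47 in *hMYC-1* ALL, and 2.37, 2.55 and 2.55 in *hlk* T-ALL).

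Immediate early genes, which respond within minutes to stimulation and to cell handling, also differed between the *hMYC* groups. Of 25 such genes chosen after the data were seen, 23 had a higher mean in *hMYC-2* than in *hMYC-1*. Since the groups were also formed from these arrays, this count only describes the list. No such share over all probe sets is given. The order *hMYC-2*, *hlk*, *hMYC-1* held for 16, while *hlk* was lowest in 6 and highest in 3. The list mean per array was 9.53 to 10.11 in *hMYC-2*, 7.11 to 8.82 in *hMYC-1* and 8.34 to 8.58 in *hlk* ALL. Among the 16 are *fosl2*, at 9.62 ± 0.59 in *hMYC-2*, 5.02 ± 0.62 in *hMYC-1* and 6.17 ± 0.30 in *hlk* ALL, and *jun*, at 11.11 ± 0.35, 7.76 ± 1.11 and 9.05 ± 0.72 in the same groups (S.D., n = 6, 4 and 3). Others ran differently, such as *klf2a*, at 10.22 ± 0.34, 9.71 ± 0.32 and 6.16 ± 2.13, and *socs3b*, at 6.87 ± 0.64, 6.88 ± 0.39 and 8.42 ± 0.25. The part of these genes in the differences of *slc25a25a*, *slc25a33*, *slc3a2b*, *slc26a5* and *slc20a1b* was not tested.

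**Figure D4:**
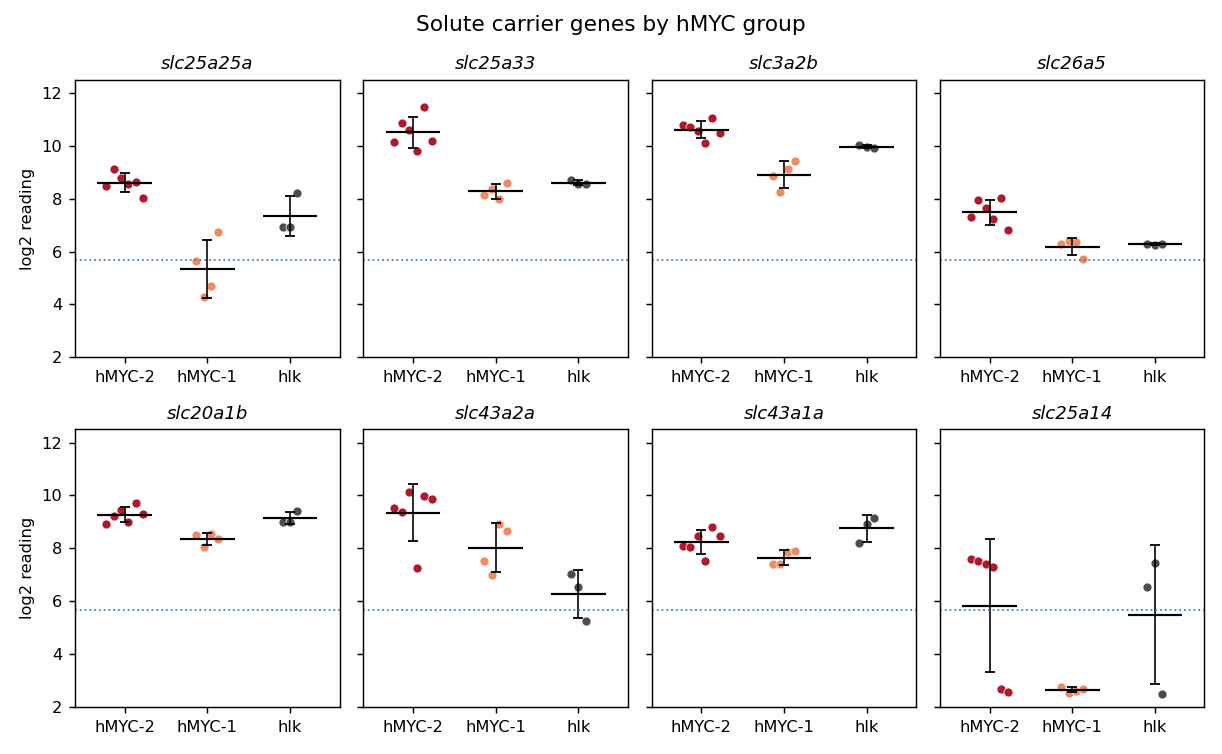
Log2 readings (vertical axis) of 8 solute carrier genes by group (horizontal axis), with 1 point per array, the group mean as a line and the S.D. as bars. The dotted line is the background limit of 5.68. In the first 5 panels all *hMYC-2* arrays lie above all *hMYC-1* arrays, and in *slc25a14* the *hMYC-2* and *hlk* arrays split between readings above 6.5 and below 2.7.

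*slc25a14*, a mitochondrial carrier related to the uncoupling proteins, fell into 2 levels that crossed the groups. It read 7.58, 7.51, 7.41, 7.30, 2.66 and 2.56 in *hMYC-2* ALL, 2.75, 2.52, 2.62 and 2.69 in *hMYC-1* ALL, and 6.52, 7.44 and 2.50 in *hlk* T-ALL. The first 4 *hMYC-2* arrays and the first 2 *hlk* arrays were high, and the other 7 arrays were low and within background. A second probe set of the same design showed the same split, and the third probe set, at 3.46 to 5.03 in *hMYC-2*, 3.94 to 5.15 in *hMYC-1* and 3.45 to 4.27 in *hlk* ALL, did not. No comparison with *hlk* passed (adjusted p = 0.642 for all *hMYC*).

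Transport genes outside the slc symbols were counted in the same way. For comparison with the counts in this paragraph, 11.6% of all probe sets were higher in all *hMYC* ALL and 13.9% were lower. Of 29 solute carrier genes with other symbols, 3 were higher in all *hMYC* ALL and 5 lower. *mfsd6b*, of the major facilitator superfamily, averaged 7.58 ± 0.58 in *hMYC-2*, 7.25 ± 0.53 in *hMYC-1* and 4.43 ± 0.46 in *hlk* ALL. Its *hlk* mean lay within background, and 10 of the 13 arrays were above background. *sv2bb*, a synaptic vesicle protein gene, averaged 3.91 ± 0.21, 4.04 ± 0.22 and 9.68 ± 2.02, within background in all *hMYC* arrays. Of 34 subunits of ATP-driven ion pumps 6 were higher and 5 lower, of 14 ABC transporters 1 was higher and 2 were lower, and of 5 aquaporins 1 was lower. Among 19 genes for amino acid sensing and for partners of the carriers, 5 were higher and 1 was lower, with a median difference of −0.07. The lower one, *emb*, was within background on all arrays. The higher ones included *eif4ebp3l* (2.96 ± 0.27, adjusted p = 4.45e-06) and *eif4ebp1* (1.64 ± 0.13, adjusted p = 9.81e-07), which encode repressors of translation that mTOR inactivates. Of these, *eif4ebp3l* was above background on 11 of the 13 arrays, with an *hlk* mean of 5.41. The others were the mTOR complex genes *mlst8* (0.61 ± 0.12) and *mtor* (0.50 ± 0.15), and *depdc5* (0.58 ± 0.18). The last encodes a part of the complex that restrains mTORC1 when amino acids are short.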

How the data were processed

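RNA of GFP+ ALL cells was hybridized to Affymetrix Zebrafish Genome Arrays (*hMYC-2* ALL, n = 6; *hMYC-1* ALL, n = 4; *hlk* T-ALL, n = 3), and arrays were grouped by title. By the series' design, each array came from an individual fish. The log2 values were deposited as the authors had summarized them, by probe set, with justRMA run on all arrays together. No scanner files were used, so this step was not repeated.

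Without the 115 controls, 15502 probe sets were fitted with limma 3.58.1 (R 4.3.3), with a mean per group and Benjamini-Hochberg adjustment over all of them. A 2-fold difference is 1 on the log2 scale. Gene names came from the array annotation, in which 10795 probe sets had 1 symbol, 135 several and 4572 none, and all 136 members matched RefSeq by gene ID. One further symbol is not reported here. Substrates were assigned by hand from the known families, mostly from mammalian relatives. The number of arrays limits the precision.

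The members, lists and tests were chosen with earlier results of these data known. Named genes are, in all *hMYC* against *hlk*, up to 15 rises and 15 falls past the threshold without overlap, the 3 smallest p in each class, the 8 largest differences between *hMYC* groups, the 5 highest means and 21 listed names. Named outside this rule, after their values were seen, were *slc25a12*, *slc25a27*, *slc31a1*, *slc37a4a*, *slc12a8*, *slc7a3a*, *slc29a2*, *slc5a8l*, *slc38a5b* and 5 zinc carriers. Same-numbered arrays of *hMYC-2* and *hlk* deviated together (r = 0.23 to 0.32), those of *hMYC-1* and *hlk* did not (−0.15 to 0.10), and the labels do not say what a number marks. Alternatives were other limma priors, array weights, a replicate block, a filter on low values, housekeeping and quantile scaling, a shrinkage t after the study's method with a local false discovery rate under 0.05, other probe sets, a 2-fold minimum and leaving out each array. The steps were tested on simulated data, where the shrinkage t called more unchanged probe sets than limma did. There 200 of 15502 probe sets were changed, while 25.5% were called in all *hMYC* against *hlk*. The simulation therefore cannot settle how the shrinkage t performs on these data.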

Additional observations from a re-analysis of the deposited data

Results flagged for a closer look

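*slc43a2a* had 1 array far from the others of its group. The fourth *hMYC-2* array read 7.27, against 9.38 to 10.13 on the other 5, a gap of 0.74 of the group's range. Of 94 gene and group pairs tested this way, 1 had such an array, where chance gives about 1 in 20.

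Relative to the *hlk* mean, 3 genes read higher on every *hMYC-2* array and lower on every *hMYC-1* array. For *slc25a33* the fourth *hMYC-1* array (8.60) all but equaled the *hlk* mean (8.61). For *slc25a25a* 1 of the 4 *hMYC-1* arrays was above background. The difference between the groups was 3.27 for *slc25a25a* (1.25 in *hMYC-2* and −2.02 in *hMYC-1*), 2.23 for *slc25a33* (1.90 and −0.33) and 1.71 for *slc3a2b* (0.65 and −1.06), in log2. The differences between the *hMYC* groups were not tested, since the groups were formed from the same arrays. Against *hlk*, the *hMYC-1* difference of *slc25a33* did not pass (limma, adjusted p = 0.524). Nor did the *hMYC-2* differences of *slc25a25a* (adjusted p = 0.0741) and *slc3a2b*.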

How the results depend on the processing

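Of 27 named genes called in all *hMYC* against *hlk*, none turned direction under any alternative fitted for it. The shrinkage t ended 18 of the 27 calls. Leaving aside the 2-fold minimum, which *slc27a1a* and *slc30a7* do not reach, 9 kept their call under each alternative that tested them (*slc25a1a*, *slc25a10b*, *slc25a32a*, *slc27a1a*, *slc2a3a*, *slc30a7*, *slc35h1*, *slc37a2* and *slc9a7*). The filter on low values did not test *slc25a10b* and *slc25a32a*. Counts within 1.5 times of those reported are not repeated here. For all *hMYC* against *hlk* (21 higher, 11 lower), the shrinkage t gave 8 higher and 1 lower, a 2-fold minimum 10 and 1, array weights 5 lower and equal housekeeping genes 3 lower. For *hMYC-1* (14 higher, 13 lower), a 2-fold minimum gave 8 higher and 4 lower, and the lower count was 7 with array weights, 6 with the replicate block, 5 with equal housekeeping genes, 2 with the shrinkage t and 7 with the 2 groups alone. For *hMYC-2* (22 higher, 9 lower), the higher count was 13 with array weights, and the shrinkage t gave 4 higher and 1 lower, a 2-fold minimum 12 and 1, while the lower count was 5 with array weights, 5 with the filter on low values and 3 with equal housekeeping genes. Leaving out 1 array gave 17 to 21 higher and 10 to 12 lower in all *hMYC*, 12 to 15 and 8 to 12 in *hMYC-1*, 16 to 23 and 7 to 11 in *hMYC-2*, and 7 to 12 members without overlap between *hMYC-2* and *hMYC-1* in place of 6. The 8 lower members of *hMYC-1* came without the second *hlk* array. Leaving out an array can only raise the count without overlap, which was 12 without the second *hMYC-1* array and 10 without the first *hMYC-1* or the fourth *hMYC-2* array. For the other counts the cause was not tested. Signal over background limits most members, since 77 of 136 were within background on every array.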

Other observations

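*slc38a5b*, related to SNAT5, a carrier of glutamine and other neutral amino acids, was above background on 2 arrays, the fourth of *hMYC-2* (7.07) and the fourth of *hMYC-1* (6.08). It read 2.94 to 3.56 on the other *hMYC-2* arrays, 3.29 to 4.50 on the other *hMYC-1* arrays and 3.06 to 3.48 on the *hlk* arrays. It was picked after its values were seen.

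The 2 levels of *slc25a14* were 3.77 apart. Over all 15502 probe sets, 101 had a gap of more than 3 between neighboring arrays when their 13 readings were put in order, and *slc25a14* was the 1 member among them.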
